A study of Mus musculus with 16 samples.

Results

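Signalling by cytokine receptors through the JAK kinases and the STAT transcription factors, and the SOCS genes that brake it, were followed in regulatory T cells (Treg). The 10 genes chosen by name were Socs1, Socs2, Socs3, Cish, Stat3, Stat5a, Stat5b, Jak1, Jak3 and Pim1. A gene was read from the probe sets annotated to its symbol alone, and where there were several the brightest over all arrays stood for it. This gave 9 measured genes among 19938 on the array. The only probe set of Jak3 is annotated to Insl3 as well, so Jak3 is not reported.

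The Treg came from the pooled lymph nodes of female wild type C57BL/6 mice aged 8 to 12 weeks. They were sorted by surface CD103, an integrin chain, and ICOS, a costimulatory receptor, into double-negative cells, cells single-positive for CD103 or for ICOS, and double-positive cells. RNA was taken right after the sort (fresh), or after a suppression assay of 3 days (activated), which held 200000 Treg of the subset, 1000000 Ly5.1 congenic naive CD4 cells, 2000000 irradiated Rag2-/- splenocytes and 0.5 ug/ml of soluble anti CD3 antibody. Activated Treg were sorted again as Ly5.1neg CD4pos CD25pos cells, so the gate kept cells with surface CD25, the product of Il2ra. Each of the 8 groups had 2 arrays, labelled as biological replicates, and the design names 2 independent experiments. All groups are wild type. The tests below therefore measure the spread between 2 arrays a group, pooled over the groups, and the number of arrays limits their precision.

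Cytokines such as interleukin-2 bind receptors that carry JAK1 and JAK3, and these kinases phosphorylate STAT5A and STAT5B. Receptors for interleukin-6 and interleukin-10 act mainly through STAT3. Cish and the SOCS genes are themselves switched on by STATs, and their proteins bind receptors or JAKs and end the signal, so that they form a feedback loop. Pim1 encodes a serine and threonine kinase that is also induced by STATs and promotes growth and survival. Treg need interleukin-2 and STAT5 to keep Foxp3, their lineage transcription factor.

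STAT dimers bind the palindrome TTCNNNGAA, and it was searched in the RefSeq promoter windows of GRCm38.p6, from 250 bases before to 50 bases after each annotated start. Of the 10 genes 9 have at least 1 window there, 12 windows in all. The motif reads the same on both strands, and it occurs in 8.3% of all 32851 windows and at least 2 times in 0.457%. It was found for 2 of the genes, Cish and Socs3. The stretches around the matches are shown because they mark the feedback genes in this set whose windows carry the STAT motif. Both run 5′ to 3′ on the gene's strand, and capitals mark the motif. The Cish stretch is chr9:107296654-107296683 on the + strand, where the matches, which do not overlap, begin at bases 1 and 12, counting the annotated start as base 1. The Socs3 stretch is chr11:117969492-117969540 on the - strand, where the match begins 154 bases before the start.
Cish: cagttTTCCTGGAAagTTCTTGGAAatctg
Socs3: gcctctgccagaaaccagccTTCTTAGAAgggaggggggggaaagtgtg
A match is a description of the letters and no measurement of binding. No match was found in the windows of Socs1, Stat3, Stat5a, Stat5b, Jak1, Jak3 and Pim1. Socs2 was not searched.

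The deposited values are log2 intensities, with array medians between 6.26 and 6.48. One array stands apart from its partner, the array labelled activated CD103neg ICOSpos replicate 2. Foxp3 was 8.53 on it, against 12.64 on its partner and 11.69 to 12.84 on the other 15 arrays. The median level of 14 Treg core genes was 9.29 there, against 11.20 to 12.24 on the other activated arrays and 11.19 to 12.05 on the fresh ones. This array is shown apart in every plot. Members' values without it are given where a call depends on it, and for some changes of direction. On fresh arrays the sort genes followed the labels: Itgae, which encodes CD103, was 7.25 to 9.19 in CD103-negative and 11.77 to 12.37 in CD103-positive cells, and Icos was 10.40 to 11.47 and 12.61 to 13.31.

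**Figure D1:**
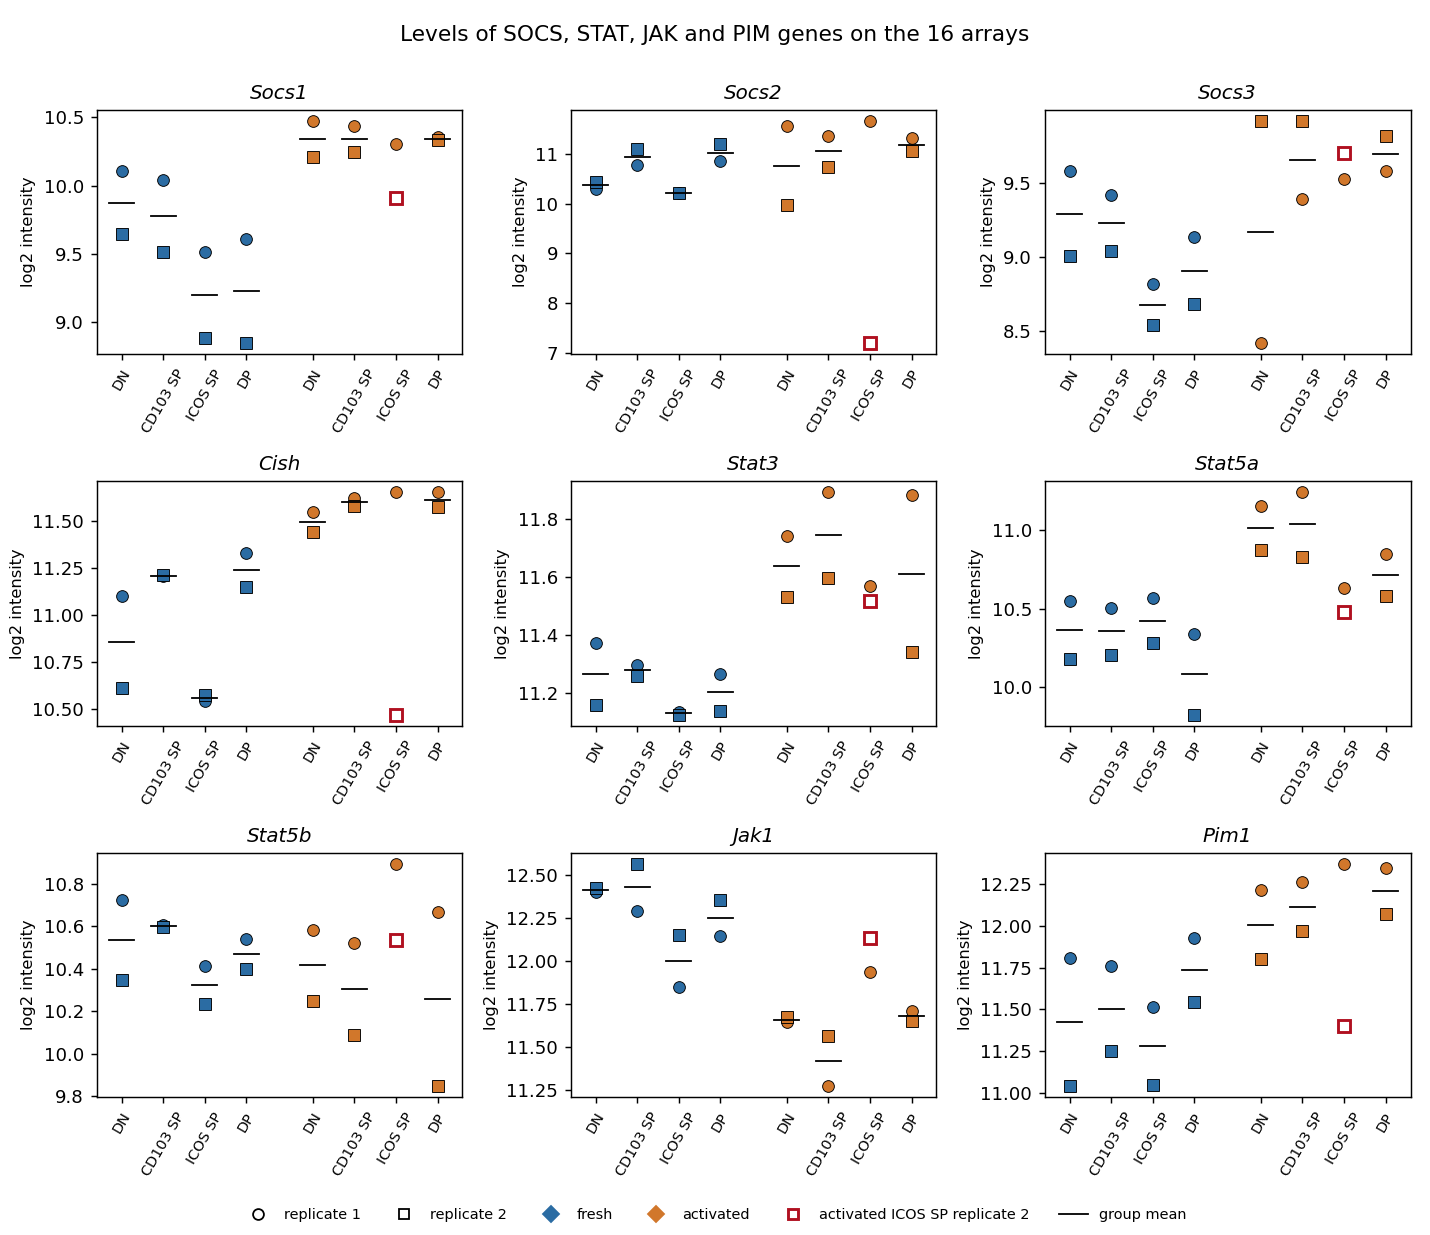
Each panel plots the log2 intensity of 1 gene on the vertical axis for the 4 fresh (blue) and the 4 activated (orange) groups, with DN for double-negative, SP for single-positive and DP for double-positive. Circles are replicate 1, squares replicate 2, black bars group means and the open red square the array that stands apart, which lies at 7.21 for Socs2 while the other 15 arrays lie between 9.97 and 11.66. The vertical axes differ between panels and do not start at 0, and levels of different genes are not comparable.

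The comparison of activated with fresh cells moved the most genes and the most of this set. Socs1, Cish, Stat3, Stat5a and Pim1 rose and Jak1 fell, which is 6 of the 9 measured genes, while limma called 31.2% of all genes tested (6214 of 19938, 2870 higher and 3344 lower). The median difference was 0.48 over the 9 genes and -0.003 over all genes. The members were chosen with earlier results of these data known, so these values are no test of the set. Socs2, Socs3 and Stat5b were not called. Without the array that stands apart the same 6 genes were called, with 30.7% of all genes called. In bulk RNA, fewer cells of a type and less RNA per cell cannot be told apart.

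Socs1, whose protein blocks the catalytic site of JAKs, rose 1.70-fold (probe set 10437668, log2 difference 0.76, SE 0.15, limma adjusted p = 0.00177). It was 10.10 and 9.65 on the fresh double-negative arrays (replicates 1 and 2), 10.04 and 9.51 on the CD103 single-positive, 9.51 and 8.89 on the ICOS single-positive, and 9.61 and 8.85 on the double-positive ones. On the activated arrays it was 10.47 and 10.21, 10.44 and 10.24, 10.31 and 9.91, and 10.35 and 10.33, in the same order of subsets. All 7 activated arrays other than the one that stands apart lay above all 8 fresh arrays. How many of all genes separate in such a way was not counted, here or for Cish, Jak1 and the other members below. Between same-numbered arrays of a subset it was higher after activation in 8 of 8 pairs, by 0.37 to 1.48. Fresh and activated arrays are not known to be paired by number, so such pairs, here and below, are a description. They come from 2 replicates a group and are not 8 independent repeats. The rise was 0.47 in double-negative and 0.56 in CD103 single-positive cells, and 1.11 in double-positive and 0.91 in ICOS single-positive cells, so that the activated groups ended close together, at means of 10.11 to 10.34. That the rise differs with ICOS was not called without pairing (difference 0.49, 0.39 in replicate 1 and 0.60 in replicate 2, adjusted p = 0.365) or with the replicate number as a block (adjusted p = 0.063). It was called with a block within each state, chosen after seeing the data (adjusted p = 0.0118), and in that fit with the array that stands apart dropped (adjusted p = 0.0061).

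Cish, which encodes the SOCS family member CIS and is a target of STAT5, rose 1.39-fold (probe set 10588577, log2 difference 0.48, SE 0.14, limma adjusted p = 0.0253). The fresh values were 11.10 and 10.61 on the double-negative arrays, 11.21 and 11.21 on the CD103 single-positive ones, 10.54 and 10.57 on the ICOS single-positive ones, and 11.33 and 11.15 on the double-positive ones. The activated values were 11.55 and 11.44, 11.62 and 11.58, 11.65 and 10.47, and 11.65 and 11.57. The 7 activated arrays other than the one that stands apart lay in a narrow band between 11.44 and 11.65, above every fresh array, while the remaining one lay below every fresh array. Without it the rise was 1.54-fold (log2 difference 0.63, SE 0.08, adjusted p = 1.12e-04). With all arrays but any 1, Cish passed in 10 of 16 fits, and the adjusted p of the other 6 was 0.0508 to 0.0621.

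Socs3, which binds receptors of the interleukin-6 family and is a target of STAT3, was not called (probe set 10393449, log2 difference 0.51, SE 0.20, limma adjusted p = 0.0805). Its difference was -0.007 in the replicate 1 arrays and 1.02 in the replicate 2 arrays. The array that sets them apart most is activated double-negative replicate 1, at 8.42, the lowest of all 16 arrays, while its partner was 9.92. The other activated arrays lay between 9.39 and 9.92, and the fresh ones between 8.54 and 9.58. Without activated double-negative replicate 1 the difference was 0.69, and without its partner it was 0.32. These were the highest and the lowest difference when each of the 16 arrays was dropped. Whether Socs3 was called depended on activated double-negative replicate 1, and dropping it leaves 1 array in that group. The other Socs3 probe set (10383010) gave 0.48 (adjusted p = 0.119) and was low on the same array, at 7.04 against 7.99 on its partner.

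Socs2, a STAT5 target whose protein restrains growth hormone signalling, had no net difference (probe set 10394674, log2 difference -0.03, SE 0.51, limma adjusted p = 0.979). The fresh arrays lay between 10.20 and 11.19. The activated replicate 1 arrays lay above all of them, at 11.30 to 11.66. The activated replicate 2 arrays were 7.21 in ICOS single-positive, 9.97 in double-negative, 11.04 in double-positive and 10.74 in CD103 single-positive cells. Thus 2 of the 4 replicate 2 arrays lay below every fresh array and none above. Without the array that stands apart the difference was 0.53 (adjusted p = 0.0924).

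Stat5a, one of the pair of closely related factors downstream of interleukin-2, rose 1.44-fold (probe set 10381172, log2 difference 0.53, SE 0.11, limma adjusted p = 0.00308). It rose from means of 10.36 to 11.02 in double-negative, from 10.35 to 11.04 in CD103 single-positive and from 10.08 to 10.71 in double-positive cells. In ICOS single-positive cells it was 10.57 and 10.28 fresh, and 10.63 and 10.48 activated. The difference was 0.65, 0.68 and 0.63 in the first groups and 0.13 in ICOS single-positive cells, where the fresh and activated arrays overlap. All 8 pairs of same-numbered arrays were higher after activation, by 0.06 to 0.76.

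Stat5b, its partner, was not called (probe set 10391286, log2 difference -0.06, SE 0.13, 95% interval -0.34 to 0.22, limma adjusted p = 0.793). The fresh arrays lay between 10.23 and 10.72 with a median of 10.48, and the activated ones between 9.85 and 10.89 with a median of 10.53. ICOS single-positive cells had higher Stat5b after activation in both pairs (by 0.48 and 0.30). Double-negative cells had lower values in both (-0.14 and -0.10), as did CD103 single-positive cells (-0.08 and -0.51), and double-positive cells differed by 0.13 and -0.55. In activated ICOS single-positive cells it was 10.89 and 10.53 (10.71 ± 0.25, SD, n = 2), the highest mean of the 8 groups. The opposite signs among subsets have no test of their own.

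Stat3 rose 1.33-fold (probe set 10391301, log2 difference 0.41, SE 0.08, limma adjusted p = 0.00259). The fresh arrays lay between 11.13 and 11.37 with a median of 11.21, and the activated ones between 11.34 and 11.89 with a median of 11.58. All 8 pairs were higher, and only activated double-positive replicate 2, the lowest, fell within the fresh range. The rise was the most even of the set over the subsets, at 0.37 in double-negative, 0.46 in CD103 single-positive, and 0.41 in both ICOS single-positive and double-positive cells. Stat3, Stat5a and Stat5b are neighbours on chromosome 11 in the RefSeq order of protein-coding genes, with Stat5a between the other two.

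Jak1, the kinase shared by the receptors named above, fell 1.49-fold (probe set 10514668, log2 difference -0.57, SE 0.07, limma adjusted p = 9.73e-05). Fresh double-negative arrays gave 12.40 and 12.43, CD103 single-positive ones 12.29 and 12.56, ICOS single-positive ones 11.85 and 12.15, and double-positive ones 12.14 and 12.35. Activated arrays gave, in the same order, 11.64 and 11.67, 11.27 and 11.57, 11.94 and 12.13, and 11.71 and 11.65. In the double-negative, CD103 single-positive and double-positive subsets every activated array lay below every fresh array of the whole series, and the mean difference was -0.75, -1.01 and -0.57. In ICOS single-positive cells the level did not move beyond its spread, with differences of 0.09 and -0.02 in the replicate pairs, the second of which holds the array that stands apart.

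Pim1 rose 1.48-fold (probe set 10443527, log2 difference 0.57, SE 0.17, limma adjusted p = 0.0269). The fresh arrays lay between 11.04 and 11.93 with a median of 11.53, and the activated ones between 11.40 and 12.37 with a median of 12.14. All 8 pairs were higher, by 0.35 to 0.86, and the array that stands apart was the lowest activated one. Without it the difference was 0.69 (adjusted p = 0.00531). When each array was dropped, Pim1 still passed in 9 of 16 fits, and the adjusted p of the other 7 was 0.0618 to 0.0683. Socs1, Stat3, Stat5a and Jak1 passed in 16 of 16.

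**Figure D2:**
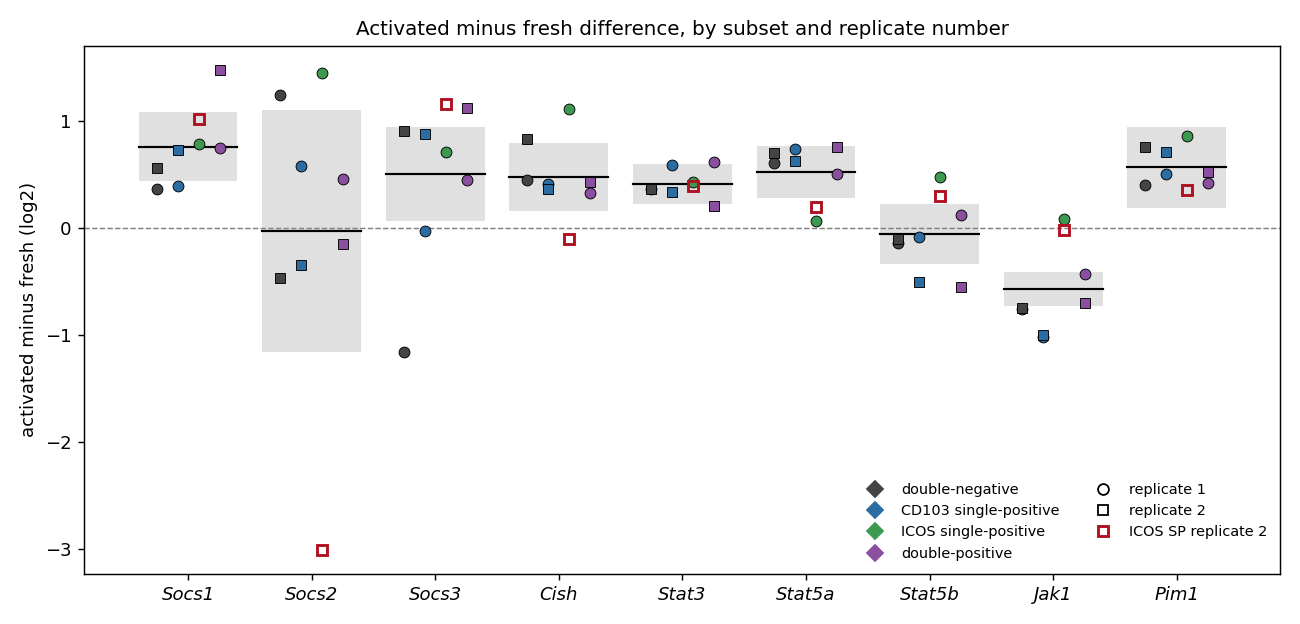
For each gene the points give the activated minus fresh difference in log2 units between same-numbered arrays of a subset, with circles for replicate 1, squares for replicate 2 and the open red square for the pair that holds the array that stands apart. Black lines are limma's differences over the 4 subsets and grey bands their 95% intervals. The Jak1 pairs of ICOS single-positive cells lie at 0.09 and -0.02 while the other 6 lie between -1.02 and -0.43, and Socs2 spreads from -3.01 to 1.45.

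In the comparison of fresh ICOS-positive with ICOS-negative cells, Socs1 and Jak1 passed only when a replicate block was fitted. Without pairing limma called 0 of 9 members and 6.53% of all genes. At an unadjusted p below 0.05 were 2 members and 3686 of 19938 genes. The differences were -0.61 for Socs1 (SE 0.21, limma adjusted p = 0.122) and -0.30 for Jak1 (SE 0.10, adjusted p = 0.131). The labels do not say that the replicate numbers pair the arrays, and a pairing within a state was inferred from these same data. The replicate block fits the same replicate difference to fresh and activated arrays, so it is not a pairing within each state. With this block both passed, with limma adjusted p = 0.00539 for Socs1 and adjusted p = 0.0312 for Jak1. That fit called 11.4% of all genes. Socs1 was lower in ICOS-positive cells in all 4 same-numbered pairs, with differences of -0.76 to -0.43, and Jak1 in all 4, with differences of -0.55 to -0.15. The ICOS-negative arrays (9.51 to 10.10) and ICOS-positive arrays (8.85 to 9.61) overlap for Socs1, and its replicate 1 arrays lay 0.46 to 0.76 above the replicate 2 arrays in every fresh group. Socs3 was lower in all 4 pairs as well (-0.47, adjusted p = 0.428, and 0.351 with the block). The Stat and Pim1 differences lay between -0.17 and 0.04.

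With CD103 in fresh cells limma called 0 of 9 members and 0.206% of all genes, and with the replicate block 0 and 0.717%. Without the block 1 member and 1494 of 19938 genes had an unadjusted p below 0.05. Cish and Socs2 had the highest differences. Cish was 11.15 to 11.33 on the CD103-positive and 10.54 to 11.10 on the CD103-negative arrays, which do not overlap (log2 difference 0.52, SE 0.20, limma adjusted p = 0.53, and 0.237 with the block). Socs2 was 10.77 to 11.19 and 10.20 to 10.43, which do not overlap either (0.69, SE 0.73, adjusted p = 0.999, and 0.827 with the block). How many of all genes separate in this way was not counted, so the separation does not set these members apart. The fit pools the spread over all groups, and among these both genes differ most between replicates in activated ICOS single-positive cells. With the array that stands apart dropped, both CD103 differences were unchanged, and the SE was 0.10 for Cish and 0.28 for Socs2. Beyond this, the part of the replicate difference in the adjusted p was not tested. Without the array that stands apart the adjusted p was 0.0539 for Cish and 0.502 for Socs2, and from the fresh arrays alone it was 0.0406 for Socs2. Cish did not pass from the fresh arrays alone (limma adjusted p = 0.11). The second Socs2 probe set (10372069) gave 0.59 (adjusted p = 0.949). For the interaction of CD103 and ICOS in fresh cells limma called 0 members and 0.0451% of all genes, or 0.356% with the block. An unadjusted p below 0.05 was reached by 0 members and 989 of 19938 genes without the block.

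After activation the ICOS difference gave 0 called members without pairing, where limma called 6.94% of all genes. An unadjusted p below 0.05 was reached by 2 members and 3923 of 19938 genes. With the replicate block 2 passed, and 13.7% of all genes: Stat5a was lower in ICOS-positive cells (log2 difference -0.39, SE 0.15, limma adjusted p = 0.174, and 0.00505 with the block), and Jak1 was higher (0.32, SE 0.10, adjusted p = 0.0916, and 0.0208 with the block). The Stat5a values were 10.83 to 11.24 on the ICOS-negative and 10.48 to 10.85 on the ICOS-positive arrays. All 4 same-numbered pairs were lower, with differences of -0.52 to -0.25. For Jak1 the ranges were 11.27 to 11.67 and 11.65 to 12.13, and all 4 pairs were higher, by 0.09 to 0.46. For both genes the ranges overlap by 1 array of each side. Without the array that stands apart and without pairing, the adjusted p was 0.328 for Stat5a and 0.224 for Jak1.

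The CD103 difference in activated cells gave 0 called members, where limma called 0.717% of all genes, and 0 and 2.6% with the block. Without the block 1 member had an unadjusted p below 0.05, as had 2414 of 19938 genes. That member was Jak1 (log2 difference -0.30, SE 0.10, limma adjusted p = 0.257, and 0.0727 with the block). For Socs2 and Cish this comparison rests on the activated ICOS single-positive pair. Without replicate 1 of that group Socs2 differed by 2.13 (adjusted p = 0.00347) and Cish by 0.62 (adjusted p = 0.0104), whereas without replicate 2 they differed by -0.10 (adjusted p = 0.969) and 0.03 (adjusted p = 0.971). The ICOS difference moved likewise, to -1.71 for Socs2 and -0.51 for Cish without replicate 1. Without replicate 2 it turned to 0.51 for Socs2 and 0.08 for Cish. For Pim1 the ICOS difference was -0.01 with all arrays and 0.23 without replicate 2.

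**Figure D3:**
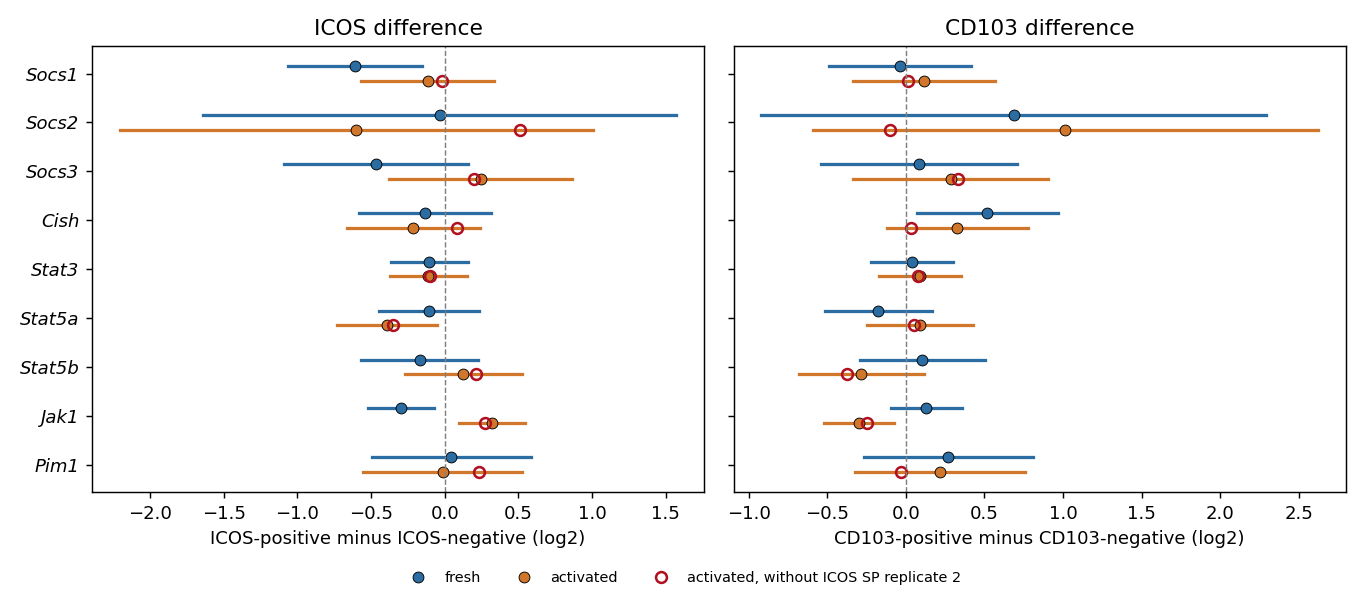
Points give limma's difference in log2 units between ICOS-positive and ICOS-negative cells (left) and between CD103-positive and CD103-negative cells (right) for each gene, in fresh (blue) and activated (orange) cells, with 95% intervals as bars. Open red circles are the activated differences without the array that stands apart. For Jak1 the ICOS difference lies at -0.30 fresh and 0.32 activated, and for Socs2 the activated CD103 difference moves from 1.02 to -0.10 without that array.

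The ICOS difference of Jak1 turned between the states, from -0.30 in fresh to 0.32 in activated cells (difference 0.61, SE 0.14, limma adjusted p = 0.028). It was the only member called in that comparison, in which 6.72% of all genes passed, and 13.2% with the block (adjusted p = 0.00475 for Jak1). All 4 fresh pairs were negative and all 4 activated pairs positive. The call is near the threshold: dropping each array, it held in 5 of 16 fits, with an adjusted p from 0.0237 to 0.0654. Without the array that stands apart it was 0.57 (adjusted p = 0.0607). The order of the Jak1 group means shows the same values. The highest were fresh CD103 single-positive (12.43) and double-negative cells (12.41), then fresh double-positive (12.25), and then activated and fresh ICOS single-positive cells (12.04 and 12.00), whose arrays overlap. Activated double-positive (11.68), double-negative (11.66) and CD103 single-positive cells (11.42) followed. Of the 7 pairs of neighbours in this order 4 do not overlap. The number was 3 for Cish, 2 for Stat3, 1 each for Socs2 and Stat5a and 0 for the other members. It was not counted over all genes, so it does not set Jak1 apart. The CD103 difference was called to differ between the states for 0 members by limma, with 0.296% of all genes called, or 1.86% with the block. Without the block 1 member and 2111 of 19938 genes had an unadjusted p below 0.05.

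The array that stands apart differed from its partner most in Socs2 among the members. Socs2 was 21.9-fold lower on it (log2 difference -4.45), and only 5 of 19938 genes were lower still, against 7 for Foxp3, which was 17.3-fold lower. The log2 difference of the second Socs2 probe set was -2.24. Cish was 2.27-fold lower and Pim1 1.96-fold lower. Socs1 differed by -0.40, Stat5b by -0.36, Stat5a by -0.15, Stat3 by -0.05, Socs3 by 0.18 and Jak1 by 0.20, against a median of 0.017 over all genes. Between these arrays 685 genes differed more than 2-fold, and a single pair has no test.

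**Figure D4:**
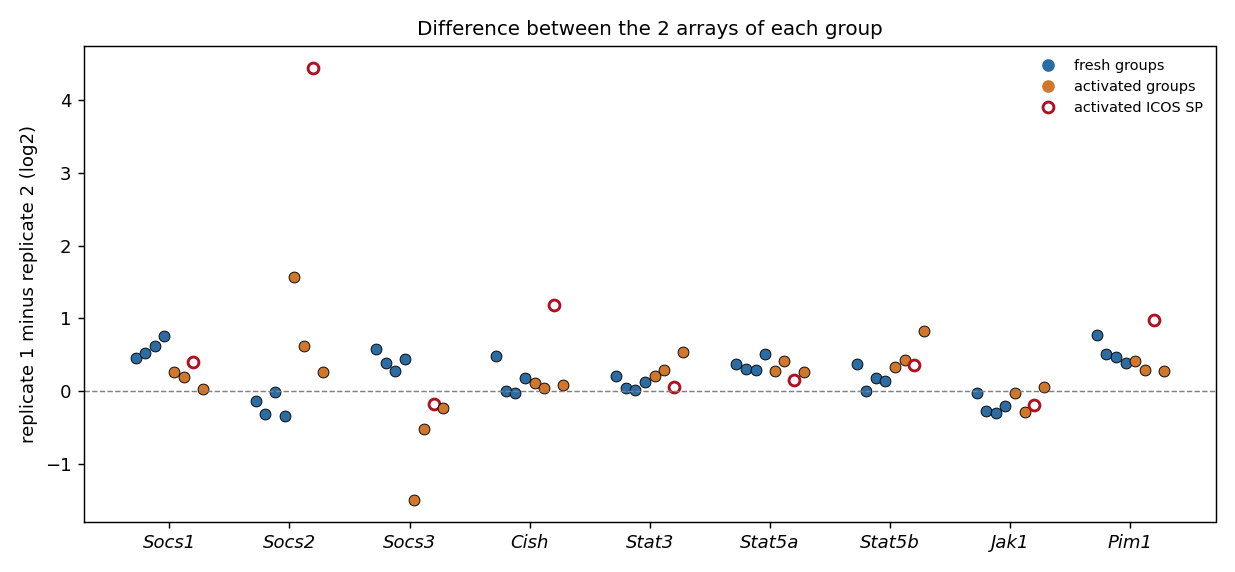
For each gene the points give replicate 1 minus replicate 2 in log2 units for the 4 fresh (blue) and 4 activated (orange) groups, with the activated ICOS single-positive group open and red. Fresh groups lie above 0 for Socs1 and Pim1, Socs3 lies above 0 in fresh and below 0 in activated groups, and the open point of Socs2 lies at 4.45.

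Replicates differed in a regular way. In all 4 fresh groups replicate 1 was higher for Socs1, Socs3, Stat3, Stat5a, Stat5b and Pim1 and lower for Socs2 and Jak1. In activated groups Socs3 turned, with replicate 2 higher in all 4 (replicate 1 minus replicate 2 of -1.499 to -0.18), and so did Socs2, with replicate 1 higher in all 4 (by 0.26 to 4.45). Pim1 kept its sign, at 0.38 to 0.77 in fresh and 0.28 to 0.97 in activated groups. Marker sums moved with the replicate number too. In all 4 fresh groups replicate 1 was higher in the summed log2 level of the myeloid markers (78.8 to 83.9 against 74.4 to 80.3), of the B cell markers (42.6 to 48.5 against 40.8 to 46.6) and of the Treg core genes (156.1 to 162.7 against 151.4 to 161.1). In activated groups the B cell and Treg core sums were again higher in replicate 1 in all 4, but the myeloid sums only in double-negative and CD103 single-positive cells. Their part in the replicate differences was not tested.

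The genes whose profiles over the 8 group means were most like those of a member were found by the root mean square difference of the centred profiles, with activated ICOS single-positive cells read from replicate 1. This was done for the 6 members whose group means span over 1 log2 unit, and it is a description over 8 points from the same arrays. The closest to Jak1 were Ncoa2, a nuclear receptor coactivator (0.060), and Idnk, a gluconokinase (0.062), where the median over all genes was 0.36. The closest to Cish were Dennd4a (0.115) and Il2ra (0.116), whose product is the high affinity subunit of the interleukin-2 receptor (median 0.40). Pim1 was closest to Csrp2 (0.089) and P4ha1 (0.094), and Socs1 to Trappc6a (0.127) and Gng12 (0.13). Socs3 was closest to Ltbp3 (0.119) and Ncoa3 (0.127), and Socs2 to P2ry10 (0.17) and Neil1 (0.171).

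Other genes of the pathway were read from lists, chosen with earlier results of these data known. The counts stand against 31.2% of all genes called with activation, and no list was tested as a whole. Beginning with the ligands, 7 of 12 cytokine genes rose with activation and 1 fell (median log2 difference 0.49). Lif, a STAT3-activating cytokine of the interleukin-6 family, rose by 3.26 (limma adjusted p = 5.97e-09). The cytokine genes Il9 (2.48) and Il10 (2.17) rose as well, and Il15 fell (-0.18). Of 8 measured receptors of the common gamma chain family 2 rose and 2 fell. Il4ra rose by 0.57 and Il2ra by 0.48, while Il9r (-1.25) and Il15ra (-0.23) fell. Since CD25 was part of the second sort, the Il2ra rise is not independent of how the cells were taken. Of 10 receptor chains linked to STAT3, 4 fell and 1 rose. Il6ra, the interleukin-6 receptor chain (-1.77, limma adjusted p = 8.87e-07), its signalling partner Il6st (-1.42) and Il27ra (-0.96) fell. Il12rb1 rose by 1.13.

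Among the kinases and STATs outside the set, 1 of 5 fell, Tyk2 (-0.50), and 0 rose with activation. Of 15 other brakes on the pathway 2 rose and 7 fell (median -0.26), or 2 and 9 once the array that stands apart was dropped. The phosphatase genes Ptpn2 (0.78) and Ptpn1 (0.45) rose, both of which encode enzymes that dephosphorylate JAKs or STATs. Sh2b3, an adaptor that restrains JAK2 (-0.78), Socs4 (-0.75) and the STAT inhibitor Pias1 (-0.50) fell. SOCS box proteins recruit ubiquitin ligases of the elongin and cullin type. Of 6 genes of such ligases, Cul2 (0.53), Eloc (0.51) and Elob (0.37) rose and Rnf7 (-0.79) fell. Cul5 and Rbx1 were not called. Once the array that stands apart was dropped, Eloc did not pass (adjusted p = 0.0749).

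Of 14 genes known as STAT5 targets 5 rose and 1 fell, or 8 and 1 if the array that stands apart is dropped. Gzmb, a granule protease, rose by 3.46, the regulator Id2 by 1.09 and the cytokine gene Osm by 0.88, and the survival gene Mcl1 fell (-0.67). Of 9 measured STAT3 targets 5 rose, among them Il21 (2.001), Batf (1.29) and Hif1a (0.85), and Ahr fell (-1.27). Of 6 measured genes of other PIM kinases and PIM substrates 3 rose: Cdc25a, a phosphatase of cell cycle entry (1.14), Eif4ebp1, a brake on translation (1.13), and Pim3 (0.47). Cdkn1b, a cell cycle inhibitor, fell (-0.53).

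The same lists were read for ICOS in fresh cells, where 6.53% of all genes were called. Of 9 measured STAT3 targets 6 rose and 0 fell (median 1.05), with Il23r at 3.34, Il21 at 2.34 and Maf at 2.08. Of 14 STAT5 targets 3 rose, Gzmb (3.61), Prdm1 (3.44) and Id2 (2.01), or 4 if the array that stands apart is dropped, and 3 fell, Bcl2 (-2.08), Myc (-0.77) and Mcl1 (-0.49). Of 8 gamma chain family receptors Il9r rose (2.32) and Il4ra fell (-0.78), and of 10 STAT3-linked receptors Il23r, Il12rb1 (1.34) and Il10ra (0.66) rose. Of 12 ligands 2 rose, Il10 (4.19) and Il21, and of the 5 other kinases and STATs 1 rose, Tyk2 (0.52), or 2 with that array dropped. Cdc25a was the 1 of 6 PIM-related genes that rose (0.62), and of the 6 ubiquitin ligase genes 0 were called. Of the 15 brakes Ptpn1 rose (0.27) and Usp18, which limits interferon signalling, fell (-1.15), and Ptpn1 did not pass once the array that stands apart was dropped (adjusted p = 0.0502). Il10ra was also higher with CD103 in fresh cells (0.91, limma adjusted p = 0.0328). After activation Stat2 (0.52) and Stat4 (0.42) were higher in ICOS-positive cells, as was Il6st (0.90), and Lif (-0.93), Myc (-0.73) and Cdc25a (-0.72) were lower. Without the array that stands apart neither Stat2 (adjusted p = 0.0845) nor Stat4 (adjusted p = 0.0766) passed.

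Several other groups of genes moved with these comparisons, and their part in the results was not tested. All 9 measured cell cycle genes rose with activation (median 3.24), and all 9 with ICOS in fresh cells (median 3.19), the comparison in which Socs1 and Jak1 were lower. Markers of activated conventional CD4 cells had 5 of 10 genes higher and 3 lower with activation, with a summed log2 level of 65.9 to 77.1 on fresh, 67.5 to 88.0 on the 7 other activated arrays and 75.2 on the array that stands apart. They moved with ICOS as well, in the comparisons that hold the Socs1, Jak1 and Stat5a differences. Their sums were 76.3 and 77.1 on the fresh ICOS single-positive arrays against 65.9 to 67.3 on the other fresh ones, and with ICOS in fresh cells 2 of 10 were called higher and 1 lower. With ICOS in activated cells 3 were called higher, Il17a (3.72), Csf2 (1.495) and Cd40lg (0.77), and 0 lower, with 9 of 10 above 0. With ICOS in fresh cells B cell markers had 2 of 7 called higher, myeloid markers 1 of 12 higher, and CD8 T and NK markers 1 of 6 higher and 1 lower. With activation B cell markers fell (5 of 7, 0 higher, sums of 40.8 to 48.5 fresh and 37.3 to 40.7 activated, 37.7 on that array). Of the myeloid markers 5 of 12 fell and 1 rose (sums of 74.4 to 83.9 and 73.2 to 76.8, 76.8 on that array). Of the CD8 T and NK markers 2 of 6 fell (sums of 35.7 to 39.1 and 33.9 to 35.5, 38.8 on that array). None of the 3 measured erythroid and platelet markers passed, and all lay below the array median on every array. Treg core genes had 4 of 14 higher and 4 lower with activation, or 6 and 4 with the array that stands apart dropped, and their summed level was 130.7 on the array that stands apart against 150.4 to 162.7 on the other 15.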

How the data were processed

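RNA of 16 samples was measured on Affymetrix arrays, 2 for each of 8 groups. The deposited values are log2 intensities for 35556 probe sets, made with RMA in affy per the submitters' processing notes, with versions and settings not given in the sources used here. Probe sets with exactly 1 symbol (21789) were kept and the brightest over all arrays stood for a gene, which left 19938 genes. Group means were fitted with limma 3.58.1 in R 4.3.3 (lmFit and eBayes, 8 residual degrees of freedom, all 16 arrays), with 8 comparisons. P-values were adjusted by Benjamini-Hochberg over all genes in each comparison, and an adjusted p below 0.05 was called. The intervals are 95% intervals of the fit.

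Members and gene lists were chosen with earlier results of these data known. Of each list up to 3 called genes per direction, those with the largest difference, were named, and for each member whose group means span over 1 log2 unit the 2 genes with the closest profile. The lists were other JAK and STAT genes, brakes, ubiquitin ligase partners, gamma chain and STAT3-linked receptors, ligands, STAT5 and STAT3 targets, PIM genes, cell cycle, Treg core, and markers of conventional CD4, B, myeloid, CD8 and NK, and erythroid cells.

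The labels give groups the same replicate numbers but do not say that a number marks an experiment. Deviations from group means correlated at 0.50 to 0.75 over 6 same-numbered pairs of fresh groups and 0.11 to 0.45 over 6 pairs of activated groups, all above 0.1, so the numbers were taken to pair arrays within a state. Across states 15 of 16 pairs were above 0.1 and the lowest was -0.016. The replicate block has the same replicate term for both states, whereas the block within each state has a term for each. Alternatives were the replicate block, quantile normalization, removal of dim genes, the mean of probe sets, and trended and robust variances. Array weights, the arrays of 1 state, and each array left out were used as well. The array weights were equal for both arrays of each group, so they could not weigh the array that stands apart below its partner. The fit was tested on simulated data. These were drawn independently for each array, without shared replicate differences or an array that stands apart, so the test does not cover those features. Promoter and gene order came from RefSeq tables for GRCm38.p6.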

Additional observations from a re-analysis of the deposited data

Results flagged for a closer look

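The ICOS difference of Jak1 differed between the states, by 0.61 between activated and fresh cells (limma adjusted p = 0.028 over all genes), with all 4 fresh pairs below 0 and all 4 activated pairs above 0. Within CD103-negative cells it was 0.38 activated and -0.41 fresh, which differ by 0.79. Within CD103-positive cells it was 0.26 and -0.18, which differ by 0.44. The CD103 difference of Jak1 within ICOS-positive cells was -0.35 activated and 0.25 fresh, a difference of -0.60. Apart from the first, these differences and those below were picked because both replicates of one group had one sign and both of the other the opposite sign, and each difference was not tested.

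For Stat5a the CD103 difference within ICOS-positive cells was 0.16 activated and -0.34 fresh, a difference of 0.50. Its ICOS difference within CD103-negative cells was -0.46 activated and 0.06 fresh, a difference of -0.52. For Stat5b the CD103 difference within ICOS-positive cells was -0.46 activated and 0.15 fresh, a difference of -0.60, and its ICOS difference within CD103-negative cells was 0.30 and -0.21, a difference of 0.51. The activated minus fresh difference of Stat5b was -0.12 in double-negative cells, against 0.39 in ICOS single-positive cells, a difference of -0.51. It was -0.29 in CD103 single-positive cells, which differs from ICOS single-positive cells by -0.68. Each of these except the Jak1 ICOS difference within CD103-positive cells uses the activated ICOS single-positive group, and so the array that stands apart.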

How the results depend on the processing

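With 2 arrays a group, small differences such as that of Stat5b could not be told from 0. With the replicate block 2275 genes were called for ICOS in fresh cells, 143 for CD103, 71 for their interaction, 2734 for ICOS and 519 for CD103 in activated cells, and 2638 and 370 for the activated minus fresh change of the ICOS and CD103 differences, against 1301, 41, 9, 1383, 143, 1339 and 59 without. It called 2 members for ICOS in fresh cells and 2 in activated cells and changed no other member's call. From the arrays of 1 state alone limma called 268 genes for CD103 in fresh cells (1 member, Socs2), 62 for the interaction and 443 for ICOS and 0 for CD103 in activated cells (1980 at an unadjusted p below 0.05). The interaction count was 17 with quantile normalization and with the mean of the probe sets, 28 with trended and robust variances and 21 with array weights, and quantile normalization gave 133 genes for the change of the CD103 difference. Without dim genes Socs3 passed for activation (adjusted p = 0.0468).

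A block within each state, chosen after seeing the data, gave in the same order 2855, 411, 174, 3502, 903, 3433 and 836 genes, with 2 members each for ICOS fresh, ICOS activated and the change of the ICOS difference. It also called Socs3 for activation (adjusted p = 0.00858) and Socs1 for that change (adjusted p = 0.0118). Leaving out the array that stands apart as well gave 3714, 1111, 457, 4135, 596, 3713 and 1168 genes, with 2, 2 (CD103 fresh, Cish and Socs2), 2 and 3 members, and the Socs2 activation difference turned to 0.43 (adjusted p = 0.0183).

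Dropping each of the 16 arrays, the counts were 771 to 1558 for ICOS and 4 to 158 for CD103 in fresh cells, 0 (876 at an unadjusted p below 0.05) to 30 for the interaction, 509 to 1449 for ICOS (0 to 2 members) and 23 to 942 for CD103 (0 to 2 members) in activated cells, 5651 to 6112 for activation (4 to 6 members), 815 to 1663 for the change of the ICOS difference (0 to 2 members) and 8 to 366 for that of the CD103 difference. The highest counts for CD103 and for both changes came without activated ICOS single-positive replicate 1 (in fresh cells equally without replicate 2). The activation difference ranged from -0.58 to 0.53 for Socs2 and from -0.16 to 0.043 for Stat5b, and Jak1's change of the ICOS difference from 0.54 to 0.69. The cause of these shifts was not tested.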
